A study of Mus musculus with 2 samples.

Results

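The genes examined were the constant genes of the T-cell receptor (Trac, Trbc1, Trbc2 and Trdc) and the CD3 chain genes (Cd3e, Cd3d, Cd3g and Cd247). They were taken by symbol, 8 of the 30457 genes listed in the tables of the series, and all 8 were listed in both. The series compared a pair of ways to amplify cDNA from single spleen cells: TAS-Seq, which tails the cDNA with terminal transferase and ends the tail with a dideoxynucleotide, and BD WTA, the manufacturer's whole-transcriptome workflow. Cells of 3 spleens had been combined and stored frozen. After thawing, 2000 cells were loaded on a BD Rhapsody nanowell cartridge, whose beads were then divided between the methods, so each library held other cells of the same pool. Both groups came from female C57BL/6J mice given a subcutaneous LLC (Lewis lung carcinoma) tumour at 10 weeks of age. All had received 200 µg of anti-CD4 antibody on day 5 and again on day 9, and spleens were collected on day 12, so neither group holds untreated mice. With 1 library per method no difference below has a replicate check, and none was tested.

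The T-cell receptor recognises antigen through a pair of variable chains, alpha with beta or gamma with delta, each joined to a constant region. These chains have very short cytoplasmic tails, and the CD3 epsilon, delta, gamma and zeta chains (Cd3e, Cd3d, Cd3g and Cd247) carry the signal through tyrosine motifs. The mouse beta locus holds a pair of constant genes, Trbc1 and Trbc2, each behind its own joining segments, so a rearranged allele uses one or the other. The delta locus lies inside the alpha locus and is deleted when alpha rearranges. CD3 zeta also serves Fc and activating receptors of natural killer (NK) cells.

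The TAS-Seq table held 736 barcodes and 38656790 reads and the BD WTA data held 716 barcodes and 31608259 reads, with 0 barcodes in common. After filtering, 732 and 708 cells remained. Clusters built without the receptor genes gave 277 T-like, 21 NK-like and 409 B-like cells in TAS-Seq and 286, 26 and 369 in BD WTA. A further 25 and 27 cells, led by Tyrobp, Fcer1g, Cst3 and Il1b, stayed unnamed. T markers fixed for the naming summed to 4743 and 4984 CPM in T-like cells against 99.0 and 105 CPM in B-like cells. Median depth was 52734 reads (TAS-Seq) and 42175 reads (BD WTA) in T-like cells, 48807 and 35021 in NK-like cells, and 42331 and 35599 in B-like cells. A level is the summed reads of a class per 1000000 reads of that class (CPM) with its exact 95% Poisson interval, and a share of cells has its exact 95% binomial interval. The reads carried no molecular identifiers, so they are not independent molecules and the intervals cover counting error only.

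Trbc1 and Trbc2 are near copies, which limits how far their reads can be separated. In the GENCODE annotation of GRCm38 Trbc1 lies at chr6:41538218-41539881 and Trbc2 at chr6:41546730-41548352, both on the plus strand and 6848 bases apart, each with 4 exons. Their 518 annotated coding bases differed at 23 positions (95.6% identity), of which 22 fell within the last 148 bases. Of the runs of 31 bases in the coding part of Trbc1, 65.8% also occurred in Trbc2, whereas the parts after the stop codon shared 0 such runs. The coding stretch that holds 22 of the 23 differences, bases 371 to 518, is shown with the differing bases in capitals.
Trbc1: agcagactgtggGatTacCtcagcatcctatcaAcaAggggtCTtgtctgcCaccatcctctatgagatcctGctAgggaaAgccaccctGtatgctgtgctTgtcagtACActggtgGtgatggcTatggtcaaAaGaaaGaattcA
Trbc2: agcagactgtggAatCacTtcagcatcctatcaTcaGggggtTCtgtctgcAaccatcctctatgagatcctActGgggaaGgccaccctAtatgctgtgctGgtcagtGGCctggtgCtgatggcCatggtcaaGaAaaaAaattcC
The tables do not say where along a gene a read fell, so every split between Trbc1 and Trbc2 below carries this uncertainty, and its size was not tested. No other member shared more than 3.27% of its runs with other genes.

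Each of the 8 members was at least 2-fold higher in T-like than in B-like cells in both libraries, where 8.23% of the 9987 genes compared in TAS-Seq and 11.0% of the 9366 in BD WTA were. Their median log2 ratio was 6.41 in TAS-Seq and 6.59 in BD WTA, beside -0.09 and -0.01 over all genes compared. T-like cells held 92.6% to 99.4% of the reads of every member in both libraries except Trdc in TAS-Seq, with 79.4% of its reads in T-like and 16.9% in NK-like cells.

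**Figure D1:**
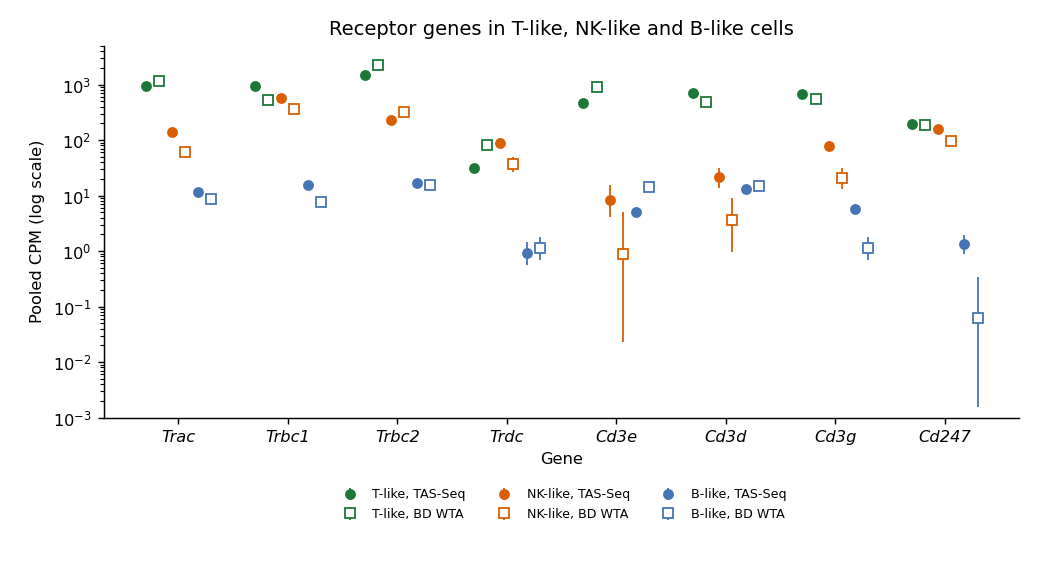
Pooled CPM (log axis) of each gene in T-like (green), NK-like (orange) and B-like (blue) cells, with filled circles for TAS-Seq, open squares for BD WTA and bars for the exact 95% Poisson interval. Trbc1, Trdc and Cd247 are within 3-fold between T-like and NK-like cells of each library (Cd247 at 191 and 155 CPM in TAS-Seq), whereas Cd3e in TAS-Seq is at 458 and 8.49 CPM.

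The alpha constant gene Trac (chr14:54220521-54224206, plus strand) was at 945 CPM (930 to 960) in T-like cells of TAS-Seq and 1152 CPM (1133 to 1171) in BD WTA, and at 11.7 and 8.54 CPM in B-like cells. After each cell was thinned to 20000 reads, which left out 25 cells of TAS-Seq and 63 of BD WTA, a Trac read was found in 91.0% (87.0 to 94.2) of 268 T-like cells of TAS-Seq and 87.9% (83.3 to 91.6) of 264 of BD WTA. B-like cells, which should lack the transcript, had one in 18.2% (14.5 to 22.3) of 396 and 2.09% (0.844 to 4.26) of 335. A single read was thus a weaker sign of expression in TAS-Seq. With at least 5 reads asked for, Trac was seen in 82.1% and 81.4% of T-like cells and in 0.758% and 0.896% of B-like cells. Unthinned, 93.9% and 85.7% of T-like cells and 33.5% and 4.34% of B-like cells had a Trac read. The Trac and Cd3e reads of B-like cells were spread in TAS-Seq, where 5 cells held 27.8% and 12.6% of them. They were gathered in BD WTA, where 5 cells held 92.1% and 97.8%. Trbc1 and Cd3d were less spread in TAS-Seq, with 56.1% and 55.7% in 5 cells, beside 96.0% and 85.4% in BD WTA.

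Both beta constant genes were read in most T-like cells. Trbc2 was at 1509 CPM (1490 to 1529) in T-like cells of TAS-Seq and 2225 CPM (2199 to 2252) in BD WTA. Trbc1 was at 946 CPM (931 to 961) and 532 CPM (519 to 544). Trbc2 was thus above Trbc1 in both libraries. Between the libraries, Trbc2 was higher in BD WTA than in TAS-Seq, and Trbc1 was higher in TAS-Seq than in BD WTA. Their sum, which does not depend on how reads were divided between them, was 2455 CPM (2431 to 2480) and 2757 CPM (2728 to 2786), a log2 ratio of -0.17. At 20000 reads Trbc2 was read in 99.3% and 95.5% of T-like cells, beside 21.5% and 6.57% of B-like cells. Trbc1 was read in 94.4% (90.9 to 96.8) of T-like cells of TAS-Seq and 61.7% (55.6 to 67.6) of BD WTA, beside 14.1% and 1.19% of B-like cells, and unthinned in 98.2% and 62.2% of T-like cells.

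Among the CD3 chains, Cd3e, Cd3d and Cd3g lie side by side on chromosome 9. Cd3g (chr9:44969572-44980431, minus strand) and Cd3d (chr9:44981786-44987339, plus strand) start 1355 bases apart and run in opposite directions, and Cd3e follows at chr9:44998740-45009627 on the minus strand. Cd247 is on chromosome 1 (chr1:165788681-165877277, plus strand). In T-like cells Cd3e was at 458 CPM (448 to 469) in TAS-Seq and 913 CPM (897 to 930) in BD WTA. Cd3d, at 719 CPM (705 to 732) against 489 CPM (477 to 502), and Cd3g, at 683 CPM (670 to 696) against 544 CPM (532 to 557), had the opposite order. Cd247 was at 191 CPM (184 to 198) in TAS-Seq and 187 CPM (180 to 195) in BD WTA, so its intervals overlapped.

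The 250 bases before the RefSeq starts of Cd3d and Cd3g (GRCm38.p6) are shown because these neighbours start back to back. Cd3d is at chr9:44981536-44981785 on the plus strand and Cd3g at chr9:44980432-44980681 on the minus strand, and capitals mark motif letters.
Cd3d: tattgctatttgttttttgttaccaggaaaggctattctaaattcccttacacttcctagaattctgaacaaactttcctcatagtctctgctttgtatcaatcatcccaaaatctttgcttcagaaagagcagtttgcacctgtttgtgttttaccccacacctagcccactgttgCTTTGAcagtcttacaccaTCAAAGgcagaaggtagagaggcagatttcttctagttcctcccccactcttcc
Cd3g: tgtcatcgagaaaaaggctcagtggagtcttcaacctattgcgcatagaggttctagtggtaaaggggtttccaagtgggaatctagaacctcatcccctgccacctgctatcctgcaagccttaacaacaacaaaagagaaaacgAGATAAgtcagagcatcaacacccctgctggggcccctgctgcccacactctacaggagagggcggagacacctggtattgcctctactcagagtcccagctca
The T-cell factor motif CTTTGA, read on both strands, occurred 2 times before Cd3d, and 13.8% of 32851 promoter windows of that length held it. The GATA motif AGATAA occurred 1 time before Cd3g, and 9.99% of windows held it. The Runx motif TGTGGT (14.0% of windows) and the TATA box letters (12.4%) occurred in none of the windows of Cd3d, Cd3g, Cd3e and Cd247, and the last pair held none of the 4 motifs. These are matches of letters and not binding sites.

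Between the libraries, the shares of T-like cells with a read of Cd3e, Cd3d and Cd3g at 20000 reads had the same order as the levels. Cd3e was read in 77.6% (72.1 to 82.5) of T-like cells of TAS-Seq and 83.7% (78.7 to 88.0) of BD WTA, beside 7.32% and 1.49% of B-like cells. Cd3d was read in 86.2% (81.5 to 90.1) and 68.6% (62.6 to 74.1), and Cd3g in 84.3% (79.4 to 88.5) and 67.4% (61.4 to 73.0). Cd247 was the least often seen, in 45.9% (39.8 to 52.1) and 37.9% (32.0 to 44.0). Unthinned, the shares for Cd3e, Cd3d, Cd3g and Cd247 were 81.9%, 88.4%, 87.4% and 56.3% in TAS-Seq and 84.6%, 68.2%, 67.5% and 38.5% in BD WTA.

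Few cells showed the whole complex at this depth. All 4 CD3 chain genes had a read in 75 of 268 T-like cells of TAS-Seq (28.0%, 22.7 to 33.8) and 49 of 264 of BD WTA (18.6%, 14.1 to 23.8). Trac, a beta gene and all 4 CD3 chain genes were read together in 72 and 45 cells. No CD3 chain read at all was found in 2 and 4 T-like cells. Among T-like cells with a read at this depth, the median was 10 reads of Cd3e in TAS-Seq and 18 in BD WTA, and 7 reads of Cd247 in both.

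To set levels of different genes side by side, they were also taken per kilobase of the longest coding transcript, over all cells. For TAS-Seq the study describes enriching cDNA ends that carry cell barcodes, so reads may not scale with transcript length. The order below depends on that scaling, except that Trbc2 was highest and Cd247 and Trdc lowest by plain CPM as well. Trbc2 was highest, at 912 CPM per kilobase in TAS-Seq and 1315 in BD WTA. Trbc1 (558) came before Trac (423) in TAS-Seq, and Trac (499.9) before Trbc1 (311.5) in BD WTA. Of the CD3 chains Cd3g (277) led Cd3d (186) and Cd3e (130) in TAS-Seq, and Cd3e (255) led Cd3g (214) and Cd3d (127) in BD WTA. The order of Cd3g and Cd3d turned with the transcript chosen. Per kilobase of the longest transcript of any kind, 2539 and not 1023 bases for Cd3g, Cd3d held 46.4% and 32.2% of the CD3 chain total in T-like cells and Cd3g 28.1% and 22.8%. Cd247 (28.1 and 26.5) and Trdc (4.16 and 8.77) were lowest in both libraries.

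The choice of beta constant gene was read in T-like cells with at least 10 reads of Trbc1 and Trbc2 together, which were 274 in each library. A cell was called nearly all Trbc1 or nearly all Trbc2 when 90% or more of these reads came from 1 gene, and mixed otherwise. In TAS-Seq 29 cells (10.6%, 7.20 to 14.8) were nearly all Trbc2, 9 (3.28%, 1.51 to 6.14) nearly all Trbc1 and 236 (86.1%, 81.5 to 89.995) mixed. In BD WTA 155 cells (56.6%, 50.5 to 62.5) were nearly all Trbc2, 10 (3.65%, 1.76 to 6.61) nearly all Trbc1 and 109 (39.8%, 33.9 to 45.8) mixed. The intervals for Trbc1 cells overlapped between the libraries, and those for Trbc2 and mixed cells did not. These intervals count cells of 1 library each. They cover neither differences between libraries nor reads assigned to the wrong beta gene, so the methods were not tested against each other.

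**Figure D2:**
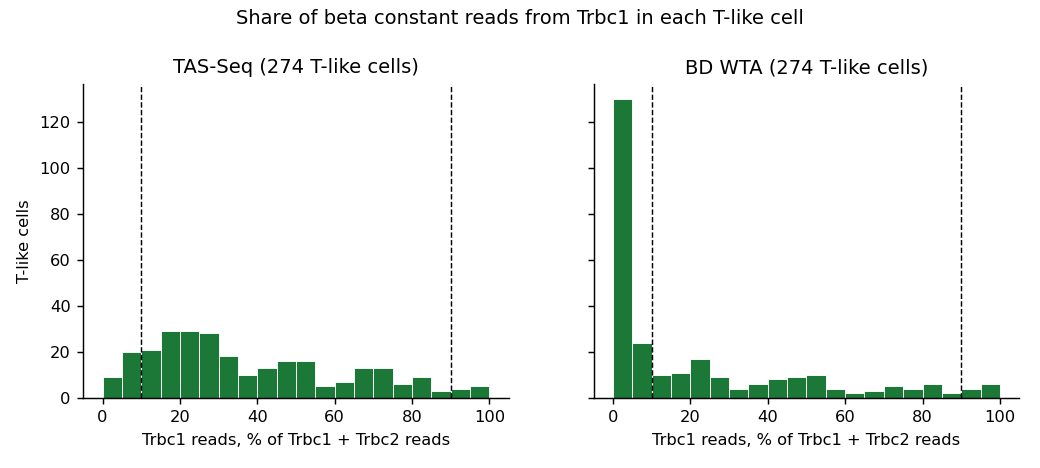
Number of T-like cells (y axis) by the percentage of their Trbc1 and Trbc2 reads that came from Trbc1 (x axis, bins of 5 percentage points), with dashed lines at 10% and 90%. TAS-Seq cells are spread around a median of 30.6%, whereas BD WTA cells pile up at the left end, with a median of 6.60%.

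Cells without any Trbc1 read were frequent in BD WTA. There 97 of the 274 cells (35.4%) had 0 Trbc1 reads beside 9128 Trbc2 reads, and 63 of the 214 cells with at least 50 beta reads had none. In TAS-Seq 2 of 274 cells had 0 Trbc1 reads, and 0 of the 241 with at least 50 beta reads. Cells called nearly all Trbc2 carried a median of 7 Trbc1 reads (90.2 CPM) in TAS-Seq and 0 in BD WTA, where pooled B-like cells had 15.4 and 7.69 CPM. Mixed cells had median levels of 714.8 CPM of Trbc1 and 1338 CPM of Trbc2 in TAS-Seq and 953 and 1470 CPM in BD WTA. At least 10 reads of the lesser gene were present in 222 of the 236 and 102 of the 109 mixed cells, and 1 and 0 of them were called doublets. Doublets were sought as mixtures of unlike cells, so a pair of T cells could go uncalled.

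Mixed cells were found with either coreceptor. Of T-like cells with at least 5 Cd4 reads and fewer than 5 of Cd8a and Cd8b1, 94.2% (85.8 to 98.4) of 69 were mixed in TAS-Seq and 34.8% (23.7 to 47.2) of 69 in BD WTA. Of those with Cd8a and Cd8b1 reads and fewer than 5 of Cd4, 81.3% (73.3 to 87.8) of 123 and 37.5% (28.5 to 47.1) of 112 were. Cells with neither were mixed in 85.7% of 77 and 45.6% of 90, and they held 6 of the 9 and 6 of the 10 nearly-all-Trbc1 cells. Cells with Cd4 reads were thus present in both libraries of these antibody-treated mice.

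Delta constant transcripts marked few T-like cells. Trdc (chr14:54142851-54148868, plus strand, 71652 bases before Trac) was at 31.4 CPM (28.7 to 34.3) in T-like cells of TAS-Seq and 79.9 CPM (75.01 to 85.0) in BD WTA, and at 0.935 and 1.16 CPM in B-like cells. In both libraries 5 cells held most of its reads, 75.7% and 75.6%. When each library was clustered alone, Trdc was at 33.8 CPM in T-like cells of TAS-Seq and 29.6 CPM in those of BD WTA, where 85 cells, the 27 unnamed above among them, fell in an unnamed cluster. At 20000 reads per cell and at least 5 reads, Trdc without Trac was found in 3 of 268 T-like cells of TAS-Seq (1.12%, 0.231 to 3.24) and 6 of 264 of BD WTA (2.27%, 0.839 to 4.88), and both genes in 3 cells of each. Trac without Trdc was found in 81.0% (75.8 to 85.5) and 80.3% (74.99 to 84.9), and neither in 16.8% and 16.3%. No B-like cell had 5 Trdc reads at that depth (0 of 396 and 0 of 335, with upper limits of 0.927% and 1.10%).

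**Figure D3:**
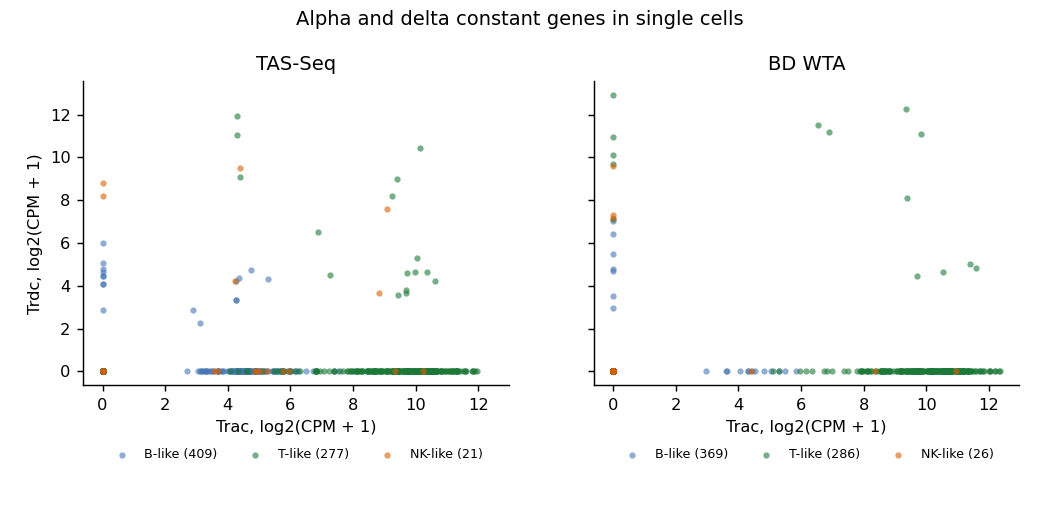
Each point is 1 cell, with Trac on the x axis and Trdc on the y axis, both as log2(CPM + 1) from all its reads, coloured by class, and with the number of cells in brackets. Most T-like cells (green) lie along the bottom with Trac alone, and 7 in TAS-Seq and 9 in BD WTA have at least 5 Trdc reads, some of them with Trac.

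Gamma constant transcripts accompanied Trdc in T-like cells. Of unthinned T-like cells with at least 5 Trdc reads, 6 of 7 in TAS-Seq and 7 of 9 in BD WTA had at least 5 reads of Trgc1 to Trgc4 together. The T-like cell of TAS-Seq with most Trdc had 213 Trdc, 132 gamma, 1 Trac, 90 Trbc2 and 78 Cd3e reads. The one of BD WTA, at 7756 CPM of Trdc, had 1 gamma, 0 Trac, 17 Trbc2 and 13 Cd3e reads. Delta transcripts thus stood beside beta transcripts in single cells. Gamma reads were found without delta as well, since 6 of 17 and 7 of 19 T-like cells with at least 5 gamma reads had at least 5 Trdc reads. Of the same 17 and 19 cells, 12 and 15 had at least 5 Trac reads. Of NK-like cells 4 of 21 and 3 of 26 had at least 5 Trdc reads, and all 7 had 0 gamma reads. A further 3 NK-like cells of each library had at least 5 gamma reads.

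The pooled level of Trdc differed between the 3 T-like clusters, but few cells of any of them carried it. In the cluster led by Il2rb, AW112010 and Ccl5 (56 and 57 cells) it was at 93.7 CPM (84.01 to 104) in TAS-Seq and 239 CPM (222 to 258) in BD WTA. In the cluster led by Tcf7, Arl4c and Thy1 (155 and 133 cells) it was at 16.4 and 29.8 CPM. In the one led by Thy1, Tcf7 and Lat (66 and 96 cells) it was at 2.51 and 32.5 CPM. A single Il2rb-cluster cell of TAS-Seq held 213 Trdc reads. After thinning, at least 5 Trdc reads were found in 7.27% (2.02 to 17.6) of 55 Il2rb-cluster cells of TAS-Seq. In BD WTA the share was 7.55% (2.09 to 18.2) of 53. The Tcf7-led cluster had 1.32% (0.160 to 4.67) of 152 and 3.05% (0.838 to 7.63) of 131, so the intervals overlapped. The Thy1-led cluster had 0% of 61 and 1.25% of 80. Trac and Trbc2 were also highest in the Il2rb cluster in both libraries, Trac at 1138 and 1284 CPM and Trbc2 at 1691 and 2800 CPM. Cd247 had no common order, being lowest there in TAS-Seq (159 CPM) and highest there in BD WTA (251 CPM).

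In the joint clustering, NK-like cells had beta constant reads, and some had Cd247 reads, with few reads of Cd3e or Cd3d. In each library 6 members (Trac, Trbc1, Trbc2, Trdc, Cd3g and Cd247) were at least 2-fold higher than in B-like cells by pooled CPM. Of the members abundant enough to be compared with all genes, 6 of 7 in TAS-Seq and 3 of 4 in BD WTA were, against 20.3% and 20.1% of all genes compared. Trbc1 was at 584 CPM (541 to 629) in TAS-Seq and 365 CPM (330 to 402) in BD WTA, and Trbc2 at 234 CPM (208 to 264) and 320 CPM (288 to 355). Trbc1 thus made up 71.4% and 53.3% of the beta reads of NK-like cells, against 38.5% and 19.3% in T-like cells. With TAS-Seq clustered alone the shares there were 42.5% in a wider NK-like cluster, of 41 cells, and 39.1% in T-like cells. At 20000 reads a Trbc1 read was found in 85.7% (63.7 to 96.95) of 21 NK-like cells of TAS-Seq and 47.8% (26.8 to 69.4) of 23 of BD WTA.

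The pooled level of Cd247 in NK-like cells was nearer to that in T-like cells than for any other CD3 chain in the joint clustering. It was at 155 CPM (134 to 180) in TAS-Seq and 95.1 CPM (77.8 to 115) in BD WTA, with 27 and 1 reads in all B-like cells. These reads lay in 9 of 21 and 4 of 26 NK-like cells, so the median cell had 0, and the 5 highest cells of TAS-Seq held 82.5% of them. Cd3e had 10 reads in all NK-like cells of TAS-Seq (8.49 CPM, 4.07 to 15.6) and 1 read in BD WTA, and B-like cells had 5.07 and 14.0 CPM. Cd3d had 25 and 4 reads. Cd3g had 92 and 23 reads, of which 47 and 40 lay in 2 cells of TAS-Seq and all 23 in 1 cell of BD WTA. NK-like cells with at least 5 reads of Cd3e, Cd3d and Cd3g together numbered 5 and 1. Without them, a choice made after these values were seen and one that itself removes CD3 reads, Trbc1 was at 466.9 CPM (421.8 to 515) in TAS-Seq and 307 CPM (274 to 344) in BD WTA, and Cd247 at 168 and 106 CPM. These NK-like levels of TAS-Seq depended on the clustering. When that library was clustered alone, its NK-like cluster held 41 cells, the 21 above and others. There 6 of the 12 NK markers were raised, where all 12 were in the joint cluster. It was led by Il2rb and Ccl5 and had 328 CPM of Cd3e, 738 CPM of Trac and 1029 CPM of Trbc2, with Cd247 at 154 CPM. At these levels of Cd3e and Trac it cannot be taken as NK cells alone.

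**Figure D4:**
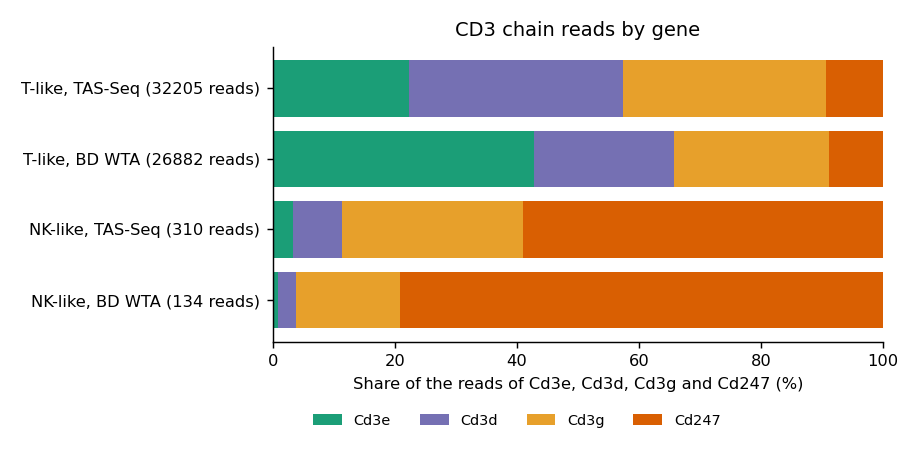
Percentage of the summed reads of Cd3e, Cd3d, Cd3g and Cd247 (x axis) held by each gene in T-like and NK-like cells of each library, with the number of reads in brackets. Cd247 holds 9.31% and 8.78% in T-like cells and 59.0% and 79.1% in NK-like cells. It holds 12.8% in the wider NK-like cluster, of 41 cells, of TAS-Seq clustered alone.

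The makeup of the pooled CD3 chain reads differed between the classes in the joint clustering. The intervals count reads and do not cover the spread between cells. The Cd247 reads of NK-like cells lay in 9 of 21 cells of TAS-Seq and 4 of 26 of BD WTA. Cd247 held 9.31% (9.00 to 9.63) of them in T-like cells of TAS-Seq and 8.78% (8.44 to 9.12) in BD WTA, and 59.0% (53.3 to 64.6) of 310 reads and 79.1% (71.2 to 85.6) of 134 reads in NK-like cells. Cd3e held 22.3% and 42.8% in T-like cells and 3.23% and 0.746% in NK-like cells. Counted per kilobase of the longest coding transcript, Cd247 held 4.33% and 4.16% in T-like cells and 35.5% and 58.3% in NK-like cells, so the direction was the same on both scales. With TAS-Seq clustered alone, Cd247 held 12.8% in its wider NK-like cluster, of 41 cells, and 9.51% in its T-like cells.

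Single NK-like cells varied widely. Trbc1 ranged from 0 to 1778 CPM in TAS-Seq, with a median of 596 CPM, and from 0 to 2597 CPM in BD WTA, with a median of 0. In TAS-Seq 17 of 21 cells had at least 5 beta reads, and 12 of these had fewer than 5 reads of Cd3e, Cd3d and Cd3g together and fewer than 5 of Trac. In BD WTA 15 of 26 had at least 5 beta reads, and 13 of these met both limits. Trac was at 141 and 60.1 CPM, with 92.8% of its TAS-Seq reads in 5 cells and all of its BD WTA reads in 3. The 15 T markers summed to 955 CPM in NK-like cells of TAS-Seq, with 1 of them at 0, and to 1310 CPM in BD WTA, with 6 at 0, and their part in these beta reads was not tested.

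Genes that work with the receptor were taken from a list of kinases, adaptors and surface regulators. Lck, Fyn, Zap70, Lat, Lcp2, Trat1, Ubash3a, Cd5, Cd6 and Cd28 were at least 2-fold higher in T-like than in B-like cells in each library, and Ptprcap was not (551 against 595 CPM in TAS-Seq, 632 against 610 CPM in BD WTA). Lck, the kinase that phosphorylates the CD3 motifs, was at 453 CPM in T-like and 303 CPM in NK-like cells of TAS-Seq, and at 940 and 766 CPM in BD WTA. Lat, the membrane adaptor, was at 514 and 95.1 CPM in TAS-Seq and at 401 and 46.6 CPM in BD WTA. Fcer1g and Tyrobp, signalling adaptors of NK and myeloid cells, were at 1485 and 2225 CPM in NK-like cells of TAS-Seq and at 1720 and 1911 CPM in BD WTA, against at most 19.2 CPM in T-like cells. Tyrobp was itself among the markers that named NK-like cells, and Lck, Lat, Cd5, Cd6, Cd28, Trat1 and the coreceptor genes among those that named T-like cells, so their direction was partly set by the naming. All 3 coreceptor genes were at least 2-fold higher in T-like than in B-like cells in both libraries.

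The unnamed myeloid-led cells held few reads of the members. Trac was at 10.1 CPM in TAS-Seq and had 1 read in BD WTA. The highest level there was that of Cd3d in BD WTA, at 37.7 CPM (28.2 to 49.5), from 52 reads in 4 cells.

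Across the 707 and 645 cells with at least 20000 reads, the genes whose levels followed the summed members most closely, of 7198 compared, were Ms4a4b, Thy1, Tcf7, Lck, Fyb, Arl4c, Ms4a6b, Lat, Lef1 and AC160336.1. Spearman's coefficient was 0.69 in TAS-Seq and 0.70 in BD WTA for Ms4a4b, 0.68 and 0.73 for Thy1, and 0.56 and 0.56 for AC160336.1. These points share their cell class and library. Taken singly, 6 members had Thy1, Tcf7 and Ms4a4b as their 3 closest genes, and Cd3d had Thy1, Tcf7 and Fyb. Trdc had Selplg, Cd7 and Nkg7, with weak coefficients of 0.13 to 0.15. Within T-like cells every pair of members had a coefficient between -0.16 and 0.16.

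Between the libraries the members did not move together. Trdc, at 16.1 CPM over all cells of TAS-Seq and 33.9 CPM of BD WTA (log2 ratio -1.07), was the 1 member at least 2-fold lower in TAS-Seq, as were 5.81% of the 10028 genes compared. No member was at least 2-fold higher, as 10.0% of genes were. Cd3e, at 190 and 373 CPM (log2 ratio -0.98), lay just inside the limit. Trbc2 (-0.53) and Trac (-0.24) were also lower in TAS-Seq, and Trbc1 (0.84), Cd3d (0.55), Cd3g (0.37) and Cd247 (0.09) higher, with a median of -0.08 over the members and 0.10 over all genes compared. Within T-like cells the ratios were -1.35 for Trdc, -0.995 for Cd3e and 0.83 for Trbc1. With each library clustered alone they were 0.19, -1.01 and 0.94, so the direction for Trdc turned. T-like cells were then 260 in TAS-Seq and 233 in BD WTA, and not 277 and 286. Over all cells Trdc stayed lower in TAS-Seq with every scaling, depth and filter tried. The 4 CD3 chain genes summed to 2051 CPM (2029 to 2074) in T-like cells of TAS-Seq and 2134 CPM (2109 to 2160) in BD WTA, so the sum differed less than Cd3e, Cd3d and Cd3g did singly.

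**Figure D5:**
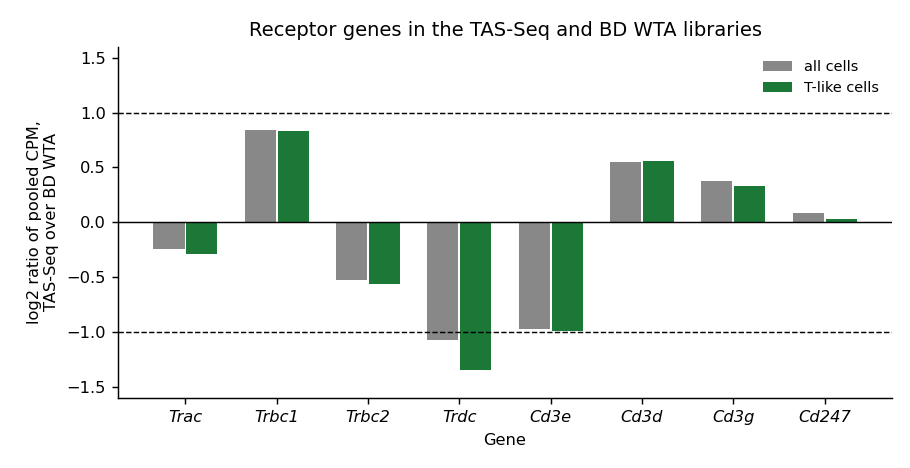
Log2 ratio of pooled CPM, TAS-Seq over BD WTA (y axis), for each gene over all cells (grey) and in T-like cells (green), with dashed lines at 2-fold. Trdc lies beyond the lower line in both (within T-like cells its ratio was 0.19 with each library clustered alone), Cd3e reaches -0.98 and -0.995, and Trbc1 is highest at 0.84 and 0.83.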

How the data were processed

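Single-cell cDNA of spleen cells was sequenced from 1 TAS-Seq and 1 BD WTA library. The deposited tables hold whole-number read counts per gene and cell barcode, which the authors made, per the labels and the study's methods, by trimming with cutadapt, aligning with Bowtie2 to GRCm38 transcripts and keeping barcodes above the inflection point, without molecular identifiers and without further normalization. The submitters' processing notes name cutadapt 2.10 and Bowtie2 2.4.2, and the study's methods name another cutadapt version. Reads that fit several near-identical transcripts could be assigned to either, which bears on Trbc1 and Trbc2. The study's methods describe fresh cells and more libraries than the labels do, and the labels were followed.

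Cells with at least 500 genes and at most 25% mitochondrial reads were kept. Both libraries were clustered together in Seurat 5.3.0 (R 4.3.3; 2787 variable genes, 20 principal components, resolution 1) without the T-cell receptor genes and CD3 chains. A class was named from at least 3 raised markers of its list, by a rule set after the clusters were seen. Scrublet (scanpy 1.11.5) called 3 and 4 doublets, which were kept. Reads were thinned to 20000 per cell for shares of cells. Genes were compared between classes or libraries where they passed minima of 10 CPM and 10 cells, and a 2-fold ratio was called. Intervals are exact at 95% (scipy 1.17.1). No test was run, since there is 1 library per method. The genes named are the members, a list of partner genes, of which some are not reported here, and the 10 genes most like the summed members (3 for each member). The members and lists were chosen with earlier results of these data known. The gamma constant genes, Tcrg-C1 to Tcrg-C4 in the annotation, are Trgc1 to Trgc4 in the tables. Positions and lengths are from GENCODE on GRCm38, which may differ from the annotation used for counting. The fold ratios, the Poisson intervals and the calls of Trbc1, Trbc2 or mixed cells were tested on simulated data without misassigned reads. Clustering, naming and thinning were not. Alternatives covered scaling (edgeR 4.0.16), depth, thresholds, clustering and length.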

Additional observations from a re-analysis of the deposited data

How the results depend on the processing

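Of 642 alternative values for 111 results, 466 lay within the counting interval (counts within 1.5 times), 175 lay outside it and 1 turned direction. Most are levels, shares or counts, which cannot turn. The log2 ratio of Trdc within T-like cells was -1.35 and became 0.19 with each library clustered alone. In that clustering 260 and 233 cells were T-like, and not 277 and 286. Members at least 2-fold apart between the libraries numbered 1, and 2 (Trdc and Cd3e) with edgeR's TMM factors, with mean CPM over cells and after thinning to 20000 reads. Shares of cells moved with the reads asked for. For Cd3e in T-like cells they were 60.8% at 5 reads and 39.6% at 10 in TAS-Seq, 70.0% with 1 read after thinning to 10000, and 73.5% and 61.0% at 5 and 10 reads in BD WTA. In NK-like cells Cd3e was at 0% with 5 or 10 reads in both libraries. It was at 56.1% in TAS-Seq when each library was clustered alone, where 41 cells, the 21 among them, were called NK-like. At 10 reads Trbc1 was in 42.9% and 26.1% of NK-like cells and Cd247 in 9.52% in TAS-Seq. Mixed T-like cells were 63.1% and 29.6% (TAS-Seq and BD WTA) when 80% of beta reads made a cell nearly all 1 gene, and 94.9% and 50.4% at 95%. T-like cells with both Trac and Trdc were 3.36% and 3.41% at 1 read. The Cd247 share of CD3 chain reads in T-like cells was 10.7% and 9.77% as a mean over cells, 6.74% and 6.75% per kilobase of the longest transcript and 4.33% and 4.16% per kilobase of the longest coding transcript. In NK-like cells it was 71.2%, 52.7% and 35.5% in TAS-Seq on these scales, 44.5% with classes from markers in each cell, 12.8% with the library clustered alone, and 58.3% per coding kilobase in BD WTA, where T-like cells clustered alone had 8.16%. The coding-length scale, the separate clustering for shares and ratios and the NK-like cells without CD3 reads were added after the data were seen. Apart from the thresholds and lengths themselves, the cause was not tested. No paired analysis was possible because only 1 library was made by each method, which also leaves no replicate to drop. The 21 and 26 NK-like cells and the few Trdc cells limit the precision of their shares.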
